A study of Saccharomyces cerevisiae with 15 samples.

Results

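The 5.8S rRNA gene was taken as every position that the deposited tables mark as 5.8S: 156 positions with signal and the last 2 without, of the 6858 positions of the 35S gene. It is RDN58-2 of the R64 genome, chromosome XII, 464551 to 464708 on the minus strand, between the internal transcribed spacers ITS1 and ITS2. Nucleotides are counted here from 1 at its 5′ end. Pol I occupancy was measured by native elongating transcript sequencing (NET-seq), in which RNA is purified together with RNA polymerase I (Pol I) and the 3′ end of each RNA is mapped. In this method each end is read as the last nucleotide that a polymerase incorporated. All 15 libraries came from wild-type *Saccharomyces cerevisiae* (budding yeast) grown at 30 °C. Per the study's methods the wild-type strain carried a His and HA tag on the Pol I subunit Rpa135, through which the enzyme was immunoprecipitated. There were 5 groups of 3 libraries, and the groups differed in what was done to the lysate before immunoprecipitation. Untreated lysates received nothing. CaCl2 lysates received 5 mM CaCl2 for 2 minutes at 37 °C, and CaCl2 + MNase lysates also received micrococcal nuclease (MNase) at 100 U/µL. MnCl2 lysates received 10 mM MnCl2 for 20 minutes on ice, and MnCl2 + DNase I lysates also received DNase I at 100 U/mL. In all 4 treated groups 5 mM EDTA was then added, and the manganese groups stood on ice for another 30 minutes. Warming or standing without a cation was not part of the design, and the cations therefore cannot be told apart from their incubations. The study's methods give each wild-type replicate a culture of its own, and for the treated groups the labels say only replicate, so p-values there measure the spread between libraries, which may be technical.

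5.8S rRNA is a short RNA of the large ribosomal subunit, in which it base-pairs with the 25S rRNA. It is cut out of the long 35S precursor that Pol I makes. Nucleases remove ITS1 up to its 5′ end, and the exosome, a complex of 3′ exonucleases, trims a precursor that extends into ITS2 back toward its 3′ end. The mature RNA is very abundant in the cell. In these data an end of mature or partly trimmed 5.8S RNA that came along with the enzyme looks the same as an end inside Pol I. The study states that Pol I NET-seq libraries are contaminated with mature rRNA. It turned to the spacers, which leave out 5.8S, to look at nascent RNA alone. "Occupancy" below therefore means the density of 3′ ends in the libraries.

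The sequence of the gene is shown with the 10 most occupied positions in capitals, because these positions differed between treatments. The order is untreated, CaCl2 and MnCl2.
Untreated: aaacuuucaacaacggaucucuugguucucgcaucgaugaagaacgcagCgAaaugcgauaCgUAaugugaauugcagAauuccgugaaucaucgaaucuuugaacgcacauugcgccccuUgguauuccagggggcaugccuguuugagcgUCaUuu
CaCl2: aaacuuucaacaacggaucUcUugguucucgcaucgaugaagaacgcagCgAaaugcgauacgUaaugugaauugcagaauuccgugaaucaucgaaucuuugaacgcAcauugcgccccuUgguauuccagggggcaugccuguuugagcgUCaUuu
MnCl2: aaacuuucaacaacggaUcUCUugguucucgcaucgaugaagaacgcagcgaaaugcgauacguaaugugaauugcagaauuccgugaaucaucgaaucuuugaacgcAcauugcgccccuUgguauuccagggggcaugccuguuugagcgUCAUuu
The MnCl2 + DNase I group had the same 10 positions as MnCl2. The CaCl2 + MNase group had the same as CaCl2 except for nucleotide 16 in place of nucleotide 122. Untreated libraries had 6 of their 10 most occupied positions between nucleotides 50 and 79, CaCl2 had 3 there, and MnCl2 had none. Nucleotides 153, 154 and 156, close to the 3′ end, were in capitals in all 5 groups. The letters come from the deposited tables, which matched R64 at all 6858 positions of the 35S gene. The annotated copy RDN58-1 (chromosome XII, 455414 to 455571) differs at 0 positions, so the values are sums over repeats.

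Libraries held 2835793 to 13234591 reads on the 35S gene and 95348 to 422497 reads in 5.8S. The values are CPM, that is reads scaled to a total of 1000000 over the 35S gene, so a rise in one place lowers others in the same library. One read was worth 0.0756 to 0.353 CPM, and this step is less certain in the 2 deepest libraries, replicate 3 of CaCl2 and of CaCl2 + MNase. The last 2 nucleotides, after nucleotide 156, were at 0 in all 15 libraries, which at 3 reads allows up to 0.227 to 1.06 CPM per library for counting error alone. Nucleotide 156 beside them had a mean of 1553 CPM in untreated libraries. Whether the authors masked the last 2 nucleotides is not stated in the sources used here, and if they did, the counting limit does not apply.

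**Figure D1:**
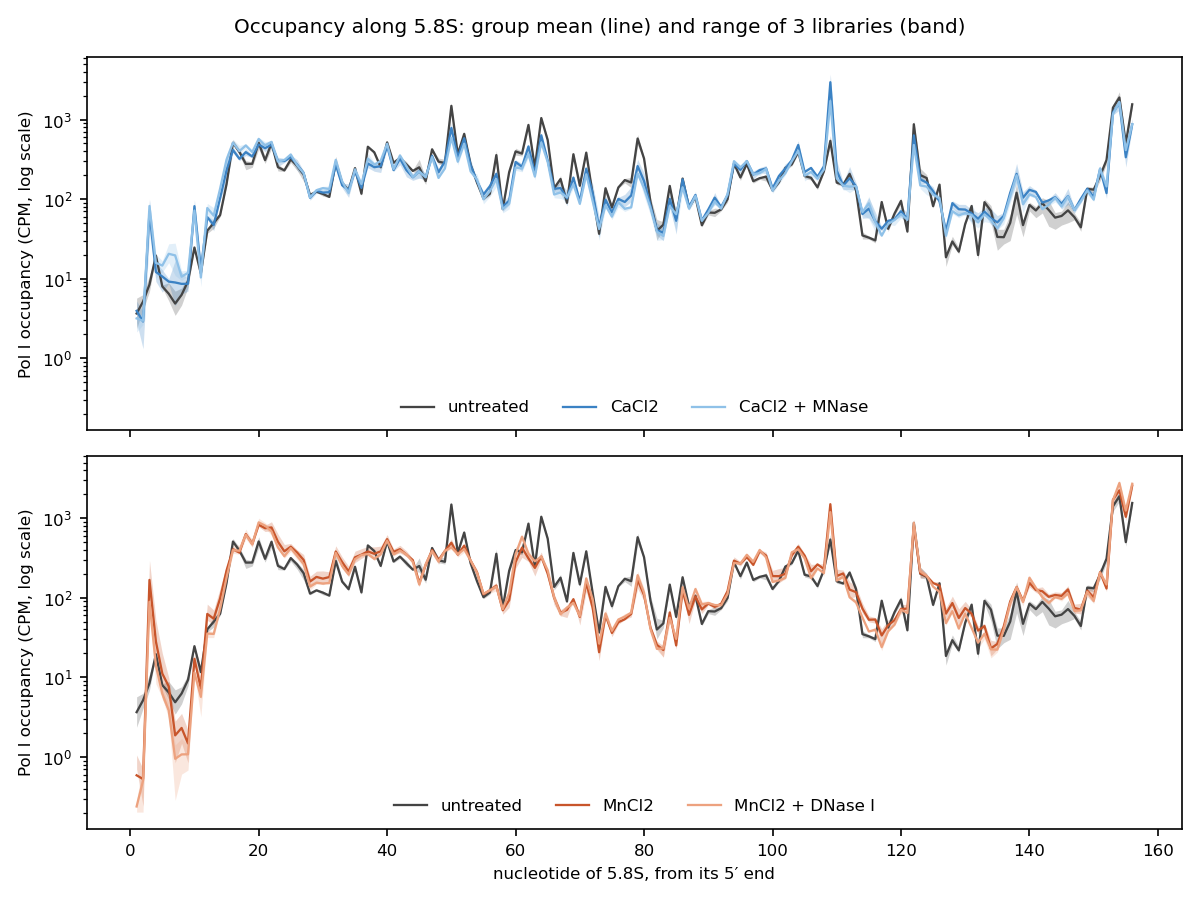
Occupancy along 5.8S in CPM on a log scale, by nucleotide from the 5′ end, for untreated, CaCl2 and CaCl2 + MNase libraries (top) and untreated, MnCl2 and MnCl2 + DNase I libraries (bottom). Lines are means of 3 libraries and bands their ranges over libraries above 0. The manganese lines run below the untreated line at every nucleotide from 64 to 86, and all treated lines lie above it at nucleotides 3 and 109.

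The first comparison asked how much of the 35S occupancy lay in 5.8S. Untreated libraries had shares of 3.38%, 3.67% and 3.503%. With CaCl2 the shares were 3.33%, 3.45% and 3.29%, and with CaCl2 + MNase they were 3.14%, 3.12% and 3.19%. With MnCl2 they were 4.09%, 3.597% and 3.79%, and with MnCl2 + DNase I 3.75%, 3.85% and 3.78%. The calcium and manganese groups thus lay on opposite sides of the untreated mean, but CaCl2 and MnCl2 each overlapped the untreated range. Between the 5 groups the share varied more than within them (exact permutation test of the F ratio, p = 0.000327, adjusted over the 7 regions of the 35S gene 0.000458). Other regions moved too. The mean share of 18S was 30.6% in untreated and 32.5% in MnCl2 libraries, and that of 25S 59.1% and 62.2%. The spacer before 18S, ETS 1, went from 4.23% to 0.148%. A higher share with MnCl2 was thus not particular to 5.8S.

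Between pairs of groups the differences in share were small. The log2 difference from untreated was -0.16 with CaCl2 + MNase and 0.11 with MnCl2 + DNase I, in both cases without overlap and with a two-sided exact permutation p = 0.1, the smallest that 3 against 3 libraries allow. For CaCl2 it was -0.07 and for MnCl2 0.12, each with overlap and an exact permutation p = 0.2. The first was -0.04 without untreated replicate 2, and the second 0.07 without MnCl2 replicate 1. CaCl2 + MNase lay below CaCl2 in all 3 libraries (log2 difference -0.09, exact permutation p = 0.1), and MnCl2 lay above CaCl2 in all 3 (0.19, exact permutation p = 0.1). MnCl2 + DNase I and MnCl2 overlapped (-0.01, exact permutation p = 0.8). Adjusted over the 7 pairs, the exact p-values ran from 0.175 to 0.8. The change with MNase from CaCl2 was not shown to differ from the change with DNase I from MnCl2 (log2 difference -0.08, exact permutation p = 0.265). Without the last 20 nucleotides of 5.8S the log2 difference from untreated was -0.03 and -0.14 for CaCl2 without and with MNase. It was 0.03 for MnCl2 without DNase I and -0.02 with it, the latter with its direction turned. That of MnCl2 from CaCl2 was 0.06, and that of MnCl2 + DNase I from MnCl2 -0.05. When 5.8S was taken as a share of 18S, 5.8S and 25S alone, the rises over untreated were smaller. The log2 difference was then 0.04 for MnCl2 and 0.02 once DNase I was added (exact permutation p = 0.6 each). The falls were larger on this scale, -0.11 for CaCl2 and -0.19 once MNase was added (exact permutation p = 0.1 each).

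**Figure D2:**
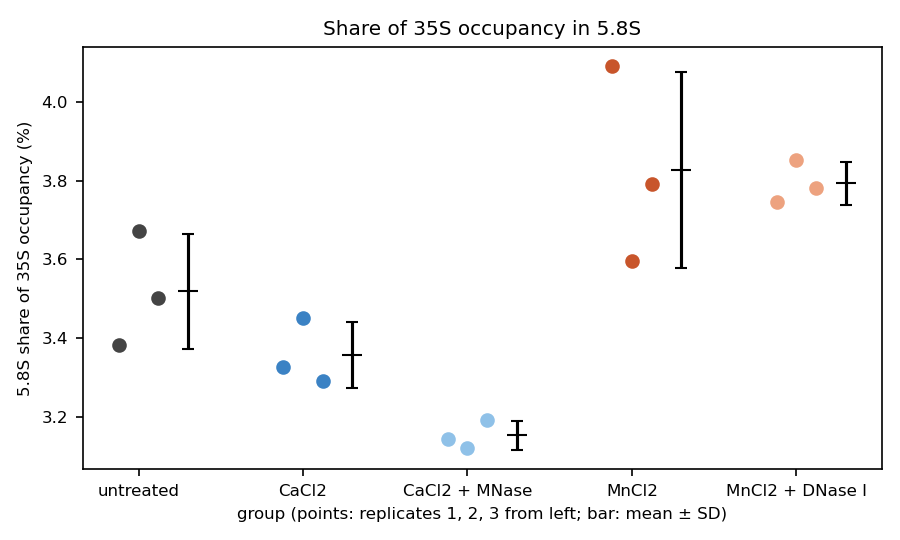
The share of 35S occupancy in 5.8S, in percent, for each of the 15 libraries by group, with the mean and SD of 3 libraries beside the points. The axis does not start at 0. CaCl2 + MNase libraries sit lowest, at 3.12% to 3.19%, and MnCl2 replicate 1 highest, at 4.09%.

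Per position, 5.8S had a higher mean occupancy than the other rRNA genes of the same transcript. In untreated libraries the mean was 223 ± 9.19 CPM per position in 5.8S, 170 ± 4.01 in 18S and 174 ± 2.14 in 25S (SD, n = 3). The ratio of 5.8S to 18S was 1.31 ± 0.0832 in untreated, 1.13 ± 0.0406 in CaCl2 and 1.05 ± 0.0241 in CaCl2 + MNase libraries. With manganese it was 1.34 ± 0.0655 without and 1.33 ± 0.0341 with DNase I (SD, n = 3 in each group). The calcium ratios were all below the untreated and manganese ones (exact permutation test over 5 groups, adjusted p = 0.00106). The ratio of 5.8S to 25S moved less, from 1.28 ± 0.0372 in untreated to 1.17 ± 0.0168 in CaCl2 + MNase and 1.32 ± 0.107 in MnCl2 libraries (SD, n = 3, adjusted exact p = 0.0160). The median over positions gave another order. In untreated libraries the median position had 145 CPM in 5.8S, 117 CPM in 18S and 120 CPM in 25S (means of 3 libraries). With CaCl2 it had 135, 139 and 130.2 CPM, and with CaCl2 + MNase 129, 144 and 131 CPM. By these means 5.8S lay below 18S in both calcium groups and below 25S with MNase. Single libraries went the other way: CaCl2 replicate 2 had 143 CPM in 5.8S and 133 in 18S. CaCl2 + MNase replicate 1 had 138 CPM in 5.8S and 132 in 25S. With MnCl2 the median position had 135, 123 and 127 CPM, and with MnCl2 + DNase I 136, 115 and 121 CPM. Thus 5.8S stood less far above 18S with MnCl2 than in untreated libraries. Over the 5 groups the ratios of medians differed (adjusted exact permutation p = 6.85e-05 to 18S and 0.00310 to 25S). For the ratios of means, without replicate 3 of every group the adjusted exact p was 0.0635 for the ratio to 18S and 0.273 for the ratio to 25S.

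The next comparison asked how occupancy was divided along the gene. The first 20 nucleotides held 6.78% ± 0.615 of 5.8S occupancy in untreated libraries, 7.82% ± 0.885 with CaCl2, 10.1% ± 0.455 with CaCl2 + MNase, and 8.86% ± 0.369 and 8.49% ± 1.15 with MnCl2 without and with DNase I (SD, n = 3). The last 20 held 19.3% ± 1.26, 16.9% ± 1.84, 17.99% ± 0.771, 24.1% ± 1.22 and 26.4% ± 1.17 in the same order (SD, n = 3). All 6 manganese libraries lay above the other 9 in the last 20 nucleotides. The body between them held 74.0% ± 1.16 in untreated libraries, 67.0% ± 1.096 with MnCl2 and 65.1% ± 0.0192 with MnCl2 + DNase I, and 75.3% ± 2.39 and 71.9% ± 0.716 with CaCl2 and CaCl2 + MNase (SD, n = 3). Over the 5 groups the adjusted exact permutation p was 0.00389 for the first 20, 7.92e-05 for the body and 0.000185 for the last 20. That for the first 20 was 0.103 without replicate 2 of every group.

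Within the body, occupancy in nucleotides 45 to 85 was lower in every treated group. This stretch was chosen after its values were seen, so it is described without a test. It held 33.2% to 36.4% of 5.8S occupancy in untreated libraries, 24.3% to 25.9% with CaCl2 and 23.0% to 23.6% with CaCl2 + MNase. With MnCl2 it held 16.1% to 20.0%, and with MnCl2 + DNase I 18.7% to 19.9%. Neither calcium range overlapped the untreated or the manganese ranges.

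**Figure D3:**
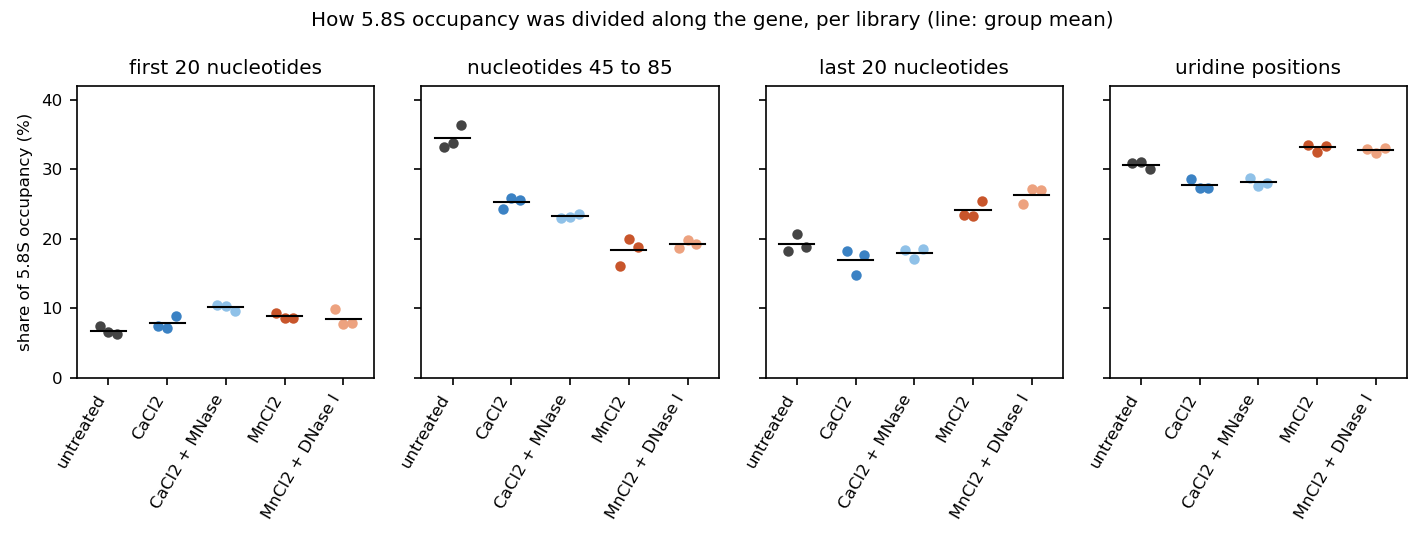
The share of 5.8S occupancy, in percent, in the first 20 nucleotides, in nucleotides 45 to 85, in the last 20 nucleotides and at uridine positions. Points are the 15 libraries by group and lines the means of 3. Nucleotides 45 to 85 go from a mean of 34.5% in untreated to 18.3% in MnCl2 libraries, while the last 20 rise from 19.3% to 24.1%.

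Each position was then tested with limma on log2(CPM + 1), using the 6 libraries of a pair of groups and adjusting over all 35S positions. Calls are positions with an adjusted p-value under 0.05. In 5.8S, 156 nucleotides passed the filter of being above 0 in at least 3 of the 6 libraries, and the last 2 did not. CaCl2 against untreated gave 52 called positions, 27 higher and 25 lower, where 32.3% of all tested 35S positions were called, 16.1% higher and 16.3% lower. CaCl2 + MNase against untreated gave 82, 40 higher and 42 lower, against 54.7%, 32.2% and 22.5% of all positions. MnCl2 against untreated gave 113, 65 higher and 48 lower, where 72.9% of all positions were called, 28.6% higher and 44.2% lower. MnCl2 + DNase I against untreated gave 117, 63 higher and 54 lower, against 75.7%, 27.5% and 48.2%. In total, the calls in 5.8S were thus near the background of the whole gene. By direction, 41.7% of 5.8S nucleotides were called higher and 30.8% lower with MnCl2, and 40.4% higher and 34.6% lower with MnCl2 + DNase I, where lower calls were the more frequent over the whole gene. These 4 comparisons share the untreated libraries. The count for CaCl2 was 52 with all libraries and 33, 34 and 28 without untreated replicate 1, 2 and 3.

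The split into higher and lower depended on the scaling. Median-ratio scaling, which divides each library by its median ratio to the others, gave 18 higher and 28 lower for CaCl2, and 33 higher and 50 lower for CaCl2 + MNase. It gave 77 higher and 37 lower for MnCl2, and 84 higher and 41 lower for MnCl2 + DNase I. Over all 35S positions this scaling called 798 higher and 1290 lower of 6845 for CaCl2. For CaCl2 + MNase it called 1784 higher and 1794 lower of 6843. The counts were 2366 and 2702 of 6840 for MnCl2, and 2516 and 2766 of 6833 for MnCl2 + DNase I. The edgeR fit, with its own scaling, gave 25 higher and 24 lower for CaCl2, close to the split without rescaling. It gave 33 higher and 50 lower for CaCl2 + MNase, 81 higher and 36 lower for MnCl2, and 86 higher and 41 lower for MnCl2 + DNase I. Over all 35S positions edgeR called 1039 higher and 1093 lower of 6845 for CaCl2. For CaCl2 + MNase it called 1804 higher and 1773 lower of 6843. The counts were 2549 and 2600 of 6840 for MnCl2, and 2614 and 2697 of 6833 for MnCl2 + DNase I. The median log2 change over the 156 positions was 0.05 with CaCl2 and 0.04 when MNase was added, and 0.18 with MnCl2 and 0.11 when DNase I was added. Over all 35S positions it was 0.07, 0.11, -0.19 and -0.24 in the same order. With every library scaled to the sum of its 5.8S values, 47 positions were called with CaCl2, 28 higher and 19 lower, where 32.7% of all positions were called, 18.5% higher and 14.3% lower. With CaCl2 + MNase 88 were called, 60 higher and 28 lower (59.0%, 41.9% and 17.1% of all positions). With MnCl2 106 were called, 56 higher and 50 lower (70.2%, 22.6% and 47.6%), and with MnCl2 + DNase I 106, 47 higher and 59 lower (73.9%, 22.0% and 52.0%).

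With manganese the calls stood in long runs of one direction. All 19 nucleotides from 18 to 36 were called higher in MnCl2 libraries, with log2 changes of 0.38 to 1.56, and the same 19 in MnCl2 + DNase I libraries, with 0.29 to 1.55. All 23 nucleotides from 64 to 86 were called lower, with changes of -1.92 to -0.36 with MnCl2 and -2.07 to -0.25 with MnCl2 + DNase I. Another 8 nucleotides from 139 to 146 were called higher with MnCl2, but formed no such run with MnCl2 + DNase I. Shorter runs of lower calls stood at nucleotides 7 to 11 with MnCl2 and 6 to 11 with MnCl2 + DNase I. The latter group also had a run of higher calls at nucleotides 95 to 100. CaCl2 gave no run of at least 5, and CaCl2 + MNase gave runs of 7 lower positions at nucleotides 59 to 65 and 74 to 80. The runs were sought after the calls were seen, and neighbouring positions of the same libraries are not independent. The sequences of both longest runs are shown with 10 bases on each side, the run in capitals.
Nucleotides 18 to 36, higher with manganese: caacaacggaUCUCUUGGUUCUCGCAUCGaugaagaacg
Nucleotides 64 to 86, lower with manganese: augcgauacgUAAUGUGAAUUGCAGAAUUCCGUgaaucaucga

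**Figure D4:**
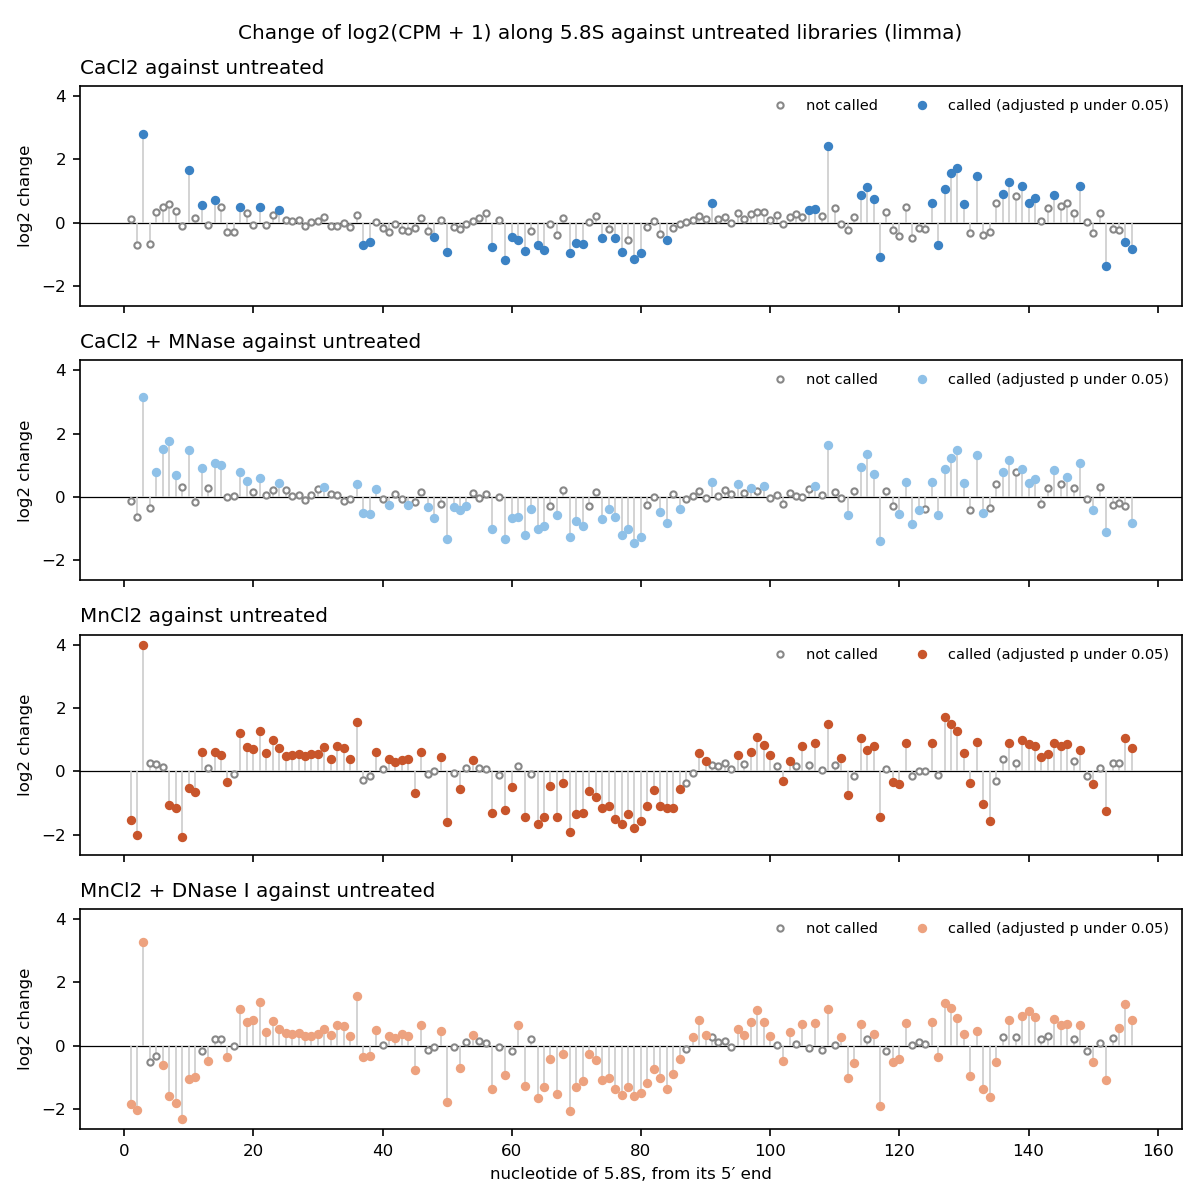
Log2 change of CPM + 1 at each nucleotide of 5.8S against untreated libraries, for the 4 treated groups. Filled points were called by limma at an adjusted p-value under 0.05 and open points were not. In both manganese groups all nucleotides from 18 to 36 are filled above 0 and all from 64 to 86 filled below 0.

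At the 5′ end, nucleotide 3 had the largest rise in every treated group. Its surroundings are aaAcuuucaacaa, with the nucleotide in capitals. Untreated libraries had 7.41, 6.90 and 10.98 CPM there. CaCl2 libraries had 100.1, 37.0 and 67.7 CPM and CaCl2 + MNase libraries 95.3, 81.6 and 68.9 CPM. MnCl2 libraries had 296, 93.4 and 114 CPM and MnCl2 + DNase I libraries 93.6, 105 and 68.3 CPM. No treated library came within the untreated range. The log2 change was 2.79 ± 0.377 with CaCl2 and 3.15 ± 0.222 with CaCl2 + MNase (SE, limma adjusted p = 0.00163 and 4.74e-05). With MnCl2 it was 3.99 ± 0.339, and with MnCl2 + DNase I 3.26 ± 0.203 (SE, limma adjusted p = 2.62e-07 and 1.31e-08).

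Most of the other nucleotides from 1 to 12 went the other way with manganese. Of these 12 nucleotides, 7 were called lower and 2 higher with MnCl2, and 8 were called lower and 1 higher with MnCl2 + DNase I. Lower calls were also frequent elsewhere. Of all tested positions of the precursor gene, 44.2% were called lower and 28.6% higher with MnCl2. With MnCl2 + DNase I these shares were 48.2% and 27.5%. Whether the 12 nucleotides differed from this background was not tested. Nucleotides 4, 5 and 6 had log2 changes of 0.27, 0.25 and 0.15 with MnCl2 and were not called (limma adjusted p = 0.516, 0.530 and 0.677), and nucleotide 12 was called higher (0.60, limma adjusted p = 0.0109). Nucleotide 2 had 4.07, 5.08 and 6.30 CPM in untreated libraries and 0.705, 0.242 and 0.635 CPM with MnCl2, which is 2, 1 and 3 reads. The log2(CPM + 1) difference was -2.01 (limma adjusted p = 4.74e-06), and -2.04 with MnCl2 + DNase I (limma adjusted p = 3.72e-06), where 3, 2 and 1 reads were found. Nucleotide 9 went from 9.30, 7.80 and 10.8 CPM in untreated libraries to 1.41, 2.18 and 0.846 CPM with MnCl2 (log2 change -2.08, limma adjusted p = 5.08e-06). With MnCl2 + DNase I it had 1.14, 0.684 and 1.42 CPM (-2.31, limma adjusted p = 5.31e-07). With calcium, nucleotides 2 and 9 were not called in either group. At nucleotide 7, CaCl2 + MNase libraries had 28.0, 10.9 and 19.9 CPM and untreated ones 6.97, 4.17 and 3.46 CPM (log2 change 1.77, limma adjusted p = 0.00445), while CaCl2 alone gave a log2 change of 0.60 that was not called (limma adjusted p = 0.375). At nucleotide 10, CaCl2 libraries had 62.5, 84.1 and 98.1 CPM, above both the untreated libraries at 23.8 to 25.1 CPM and the MnCl2 libraries at 15.5 to 19.7 CPM. MnCl2 against CaCl2 gave a log2 change of -2.17 there (limma adjusted p = 0.000197).

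Just before the gene, the last 20 positions of ITS1 together had 522, 457 and 492 CPM in untreated and 28.9, 29.5 and 29.6 CPM in MnCl2 libraries. Its last position, next to nucleotide 1 (chromosome XII, 464709), was low throughout, at 4.72 to 5.90 CPM in untreated and 0.353 to 1.93 CPM in MnCl2 libraries. With MnCl2 + DNase I the sums over the 20 positions were 22.2, 24.2 and 19.7 CPM. CaCl2 libraries had 225, 216 and 569 CPM, so that replicate 3 stood apart from the other 2, and CaCl2 + MNase libraries had 536, 463 and 475 CPM. The sum over the first 12 nucleotides of 5.8S was 142 to 156 CPM in untreated, 194 to 500.0 CPM in MnCl2 and 139 to 189 CPM in MnCl2 + DNase I libraries, but nucleotide 3 made up much of the manganese sums. Without nucleotide 3, which was left out after its values were seen, the sums were 139, 135 and 145 CPM in untreated and 204, 100.8 and 118 CPM in MnCl2 libraries, of which 1 lay above and 2 below the untreated range. With MnCl2 + DNase I they were 87.7, 84.1 and 70.5 CPM, all below the untreated ones. With CaCl2 they were 199, 207 and 252 CPM, and with CaCl2 + MNase 277, 269 and 230 CPM, all above.

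In the stretch that rose with manganese, nucleotide 36 changed most in MnCl2 libraries. It had 116, 125 and 110 CPM in untreated, 146, 135 and 134 CPM in CaCl2, and 414, 313 and 319 CPM in MnCl2 libraries. Untreated and CaCl2 libraries lay within 110 to 146 CPM, and every MnCl2 library above them. Its context is uucucgcaucGaugaagaacg. The log2 change with MnCl2 was 1.56 ± 0.126 against untreated and 1.32 ± 0.146 against CaCl2 (SE, limma adjusted p = 1.64e-07 and 0.000223). With MnCl2 + DNase I it had 359, 347 and 328 CPM (log2 change 1.55, limma adjusted p = 4.99e-09). Nucleotide 21 went from 337, 309 and 281 CPM in untreated to 880, 782 and 759 CPM in MnCl2 + DNase I libraries (log2 change 1.38, limma adjusted p = 4.26e-08).

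In the middle of the gene, nucleotides 50 and 64 were among the 5 most occupied positions of untreated libraries and fell in every treated group. Nucleotide 50, in the context aagaacgcagCgaaaugcgau, had 1293, 1558 and 1606 CPM in untreated libraries. It had 743, 903 and 705 CPM with CaCl2 and 571, 599 and 608 CPM with CaCl2 + MNase. It had 550, 498 and 427 CPM with MnCl2 and 407, 452 and 434 CPM with MnCl2 + DNase I. No treated group overlapped the untreated one. The log2 changes were -0.92, -1.32, -1.59 and -1.78 in this order (limma adjusted p = 0.00814, 9.48e-05, 3.36e-07 and 7.41e-09).

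Nucleotide 64, in the context augcgauacgUaaugugaauu, had 976, 1080 and 1074 CPM in untreated libraries. CaCl2 libraries had 631, 637 and 635 CPM there, and MnCl2 libraries 304, 376 and 307 CPM. Its log2 change was -0.72 with CaCl2 and -1.02 with CaCl2 + MNase, and it was -1.67 with MnCl2 and -1.66 with MnCl2 + DNase I (limma adjusted p = 0.00754, 0.000108, 5.91e-08 and 3.74e-09). Here MnCl2 also lay below CaCl2 (log2 change -0.95, limma adjusted p = 0.00106). For nucleotide 50 that difference was -0.67 (limma adjusted p = 0.0118), and it was not called without MnCl2 replicate 3 (limma adjusted p = 0.0720), after median-ratio scaling (0.0632) or by edgeR (adjusted p = 0.131).

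The largest falls of this stretch with manganese and with calcium were at other nucleotides. Nucleotide 69 had 346, 370 and 383 CPM in untreated, 185, 181 and 194 CPM in CaCl2, and 93.4, 97.5 and 97.3 CPM in MnCl2 libraries. Its log2 change was -1.92 ± 0.102 with MnCl2 and -2.07 ± 0.0870 with MnCl2 + DNase I (SE, limma adjusted p = 2.91e-09 and 3.76e-10). Nucleotide 59 had 223, 207 and 226 CPM in untreated and 92.5, 111 and 84.7 CPM in CaCl2 libraries (log2 change -1.19, limma adjusted p = 0.000919). Nucleotide 79 had 473, 612 and 646 CPM in untreated, 231, 317 and 232 CPM in CaCl2 and 204, 216 and 212 CPM in CaCl2 + MNase libraries. Its changes were -1.15 and -1.44 (limma adjusted p = 0.00297 and 0.000105). None of these groups overlapped the untreated libraries.

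Nucleotide 109 was the most occupied position of 5.8S in both calcium groups. Its context is cuuugaacgcAcauugcgccc. It had 520, 625 and 474 CPM in untreated libraries and 2698, 3738 and 2397 CPM with CaCl2. With CaCl2 + MNase it had 1399, 1995 and 1732 CPM, with MnCl2 1524, 1406 and 1571 CPM, and with MnCl2 + DNase I 1021, 1263 and 1295 CPM. Every treated library was above every untreated one. Against untreated the log2 change was 2.43 ± 0.228 with CaCl2 and 1.66 ± 0.155 with CaCl2 + MNase (SE, limma adjusted p = 0.000321 and 0.000157). It was 1.48 ± 0.134 with MnCl2 and 1.15 ± 0.124 with MnCl2 + DNase I (SE, limma adjusted p = 5.05e-07 and 2.73e-06).

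The 3 CaCl2 libraries were above the 3 MnCl2 libraries at nucleotide 109 (log2 change of MnCl2 against CaCl2 -0.95, limma adjusted p = 0.0222). This call was lost without MnCl2 replicate 1, 2 or 3 (limma adjusted p = 0.0674, 0.111 and 0.0838) and after median-ratio scaling (0.0705). Downstream, nucleotide 129 rose from 24.4, 20.51 and 20.7 CPM in untreated to 72.9, 85.9 and 64.9 CPM with CaCl2 (log2 change 1.72, limma adjusted p = 0.000914). Nucleotide 127 rose from 20.0, 21.4 and 14.2 CPM to 74.8, 60.7 and 54.1 CPM with MnCl2 (1.72, limma adjusted p = 3.56e-06). Nucleotide 117 fell from 94.7, 84.2 and 96.6 CPM to 33.8, 34.7 and 35.9 CPM with CaCl2 + MNase (-1.37, limma adjusted p = 0.000157).

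At the 3′ end the cations went apart. Nucleotide 156 was the last with any signal and the most occupied position of MnCl2 libraries. It had 1514, 1735 and 1409 CPM in untreated libraries. With CaCl2 it had 1040, 777 and 790 CPM, and with CaCl2 + MNase 836, 890 and 900.3 CPM. With MnCl2 it had 2520, 2298 and 2902 CPM, and with MnCl2 + DNase I 2538, 2831 and 2758 CPM. Calcium libraries were all below and manganese libraries all above the untreated ones. The log2 changes were -0.84, -0.82, 0.73 and 0.81 in this order (limma adjusted p = 0.0143, 0.000635, 0.00138 and 5.74e-05). The fall with CaCl2 was not called without untreated replicate 1 or 2 (limma adjusted p = 0.0537 and 0.0627). MnCl2 against CaCl2 gave 1.57 ± 0.230 (SE, limma adjusted p = 0.000978).

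Its neighbours differed among themselves. Nucleotide 155 had 445, 554 and 504 CPM in untreated, 359, 252 and 395 CPM in CaCl2 and 963, 936 and 1229 CPM in MnCl2 libraries (MnCl2 against CaCl2 log2 change 1.65, limma adjusted p = 0.000412). Nucleotide 154 was the most occupied position of untreated libraries, with 1622, 2232 and 1821 CPM, and also of MnCl2 + DNase I libraries, with 2487, 3021 and 2812 CPM (log2 change 0.56, limma adjusted p = 0.00336). Nucleotide 153 had 1221, 1464 and 1546 CPM in untreated and 1948, 1484 and 1693 CPM in MnCl2 libraries, which overlapped. Nucleotide 152, a G, fell from 275, 338 and 318 CPM to 102, 120 and 136 CPM with CaCl2 (log2 change -1.38, limma adjusted p = 0.000621), and MnCl2 libraries had 136, 120 and 137 CPM. The end of the gene with nucleotide 156 in capitals reads uugagcgucaUuu.

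**Figure D5:**
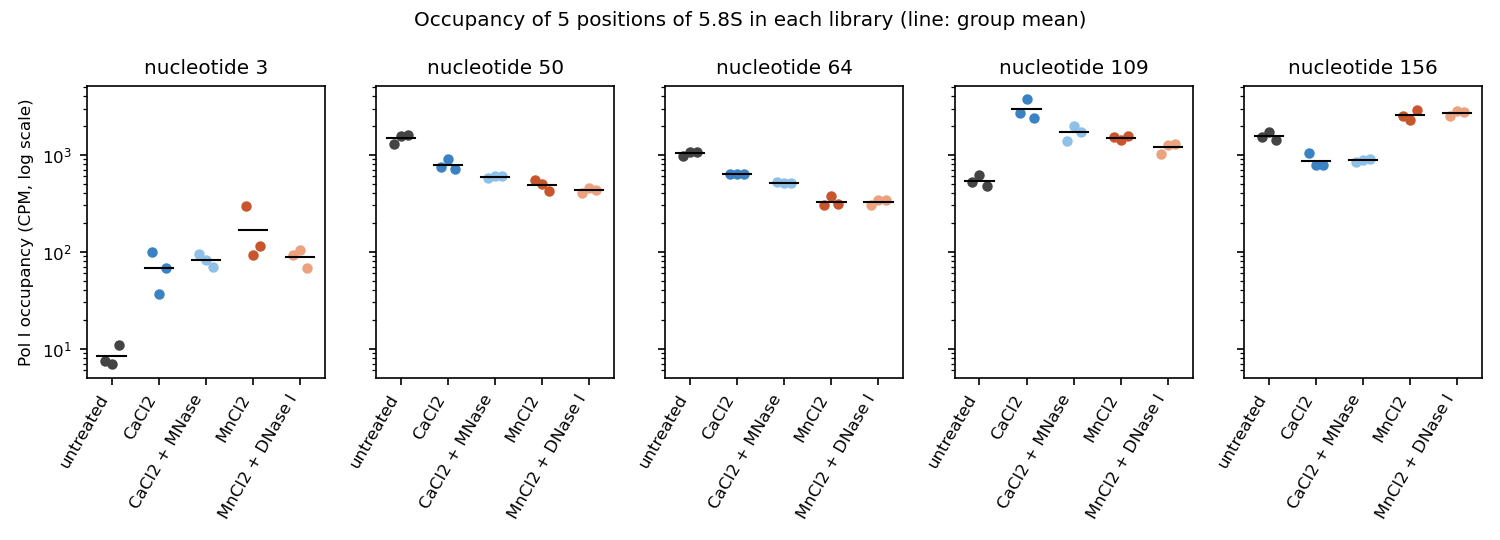
Occupancy in CPM on a log scale at nucleotides 3, 50, 64, 109 and 156 of 5.8S in each of the 15 libraries, by group, with a line at each group mean. Nucleotides 3 and 109 are higher and nucleotides 50 and 64 lower in all 12 treated libraries, and nucleotide 156 is lower with calcium and higher with manganese.

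Occupancy past the 3′ end, in the first 20 positions of ITS2, was also higher with manganese. Its sum was 2693, 3031 and 2673 CPM in untreated, 6808, 5197 and 5724 CPM in MnCl2 and 4360, 4939 and 4564 CPM in MnCl2 + DNase I libraries. With CaCl2 it was 3622, 2072 and 2956 CPM and with CaCl2 + MNase 3047, 2829 and 3018 CPM, which overlapped the untreated values. The most occupied of these positions (chromosome XII, 464545) had 654, 751 and 656 CPM in untreated and 1766, 1265 and 1412 CPM in MnCl2 libraries. It had 984, 1075 and 993 CPM with MnCl2 + DNase I, and 353 to 709 CPM in the 6 calcium libraries. The sums in both flanks are given as values and were not tested.

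Adding a nuclease to its cation gave no called position. For CaCl2 + MNase over CaCl2, limma called 0 of 156 nucleotides, where 0% of all 35S positions were called. An unadjusted limma p-value under 0.05 was found at 13 of them, and at 156 of 6841 positions over the whole 35S gene. The edgeR test also gave 0, with 12 at an unadjusted p-value under 0.05. The largest fall was at nucleotide 109 (log2 change -0.77 ± 0.289, SE, limma adjusted p = 0.928), although the 3 libraries of each group did not overlap. The largest rise was at nucleotide 7 (1.17 ± 0.538, SE, limma adjusted p = 0.928), where 4.54, 5.45 and 16.9 CPM with CaCl2 overlapped the values with MNase.

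MnCl2 + DNase I against MnCl2 also gave 0 of 156 called positions by limma, where 0.238% of all positions were called, 0.0595% higher and 0.178% lower. An unadjusted limma p-value under 0.05 was found at 34 of the 156, and at 1380 of 6725 positions over the whole gene. The edgeR test gave 0, with 34 at an unadjusted p-value under 0.05. Without MnCl2 replicate 1 the limma count was 2, where 233 of 6707 positions of the whole gene were called. Without MnCl2 replicate 3 it was 4, where 177 of 6700 were called. With all libraries 16 of 6725 were called, and leaving out any other library gave 2 to 8. The low count over the whole gene thus depended on single MnCl2 libraries. The largest rise was at nucleotide 61, from 322, 474 and 485 CPM with MnCl2 to 526, 618 and 615 CPM with DNase I (log2 change 0.48 ± 0.135, SE, limma adjusted p = 0.0918). Without MnCl2 replicate 3 it was called (0.58, limma adjusted p = 0.0315). The largest fall was at nucleotide 4, from 52.5, 12.8 and 19.5 CPM to 17.6, 16.2 and 8.31 CPM, with overlap (-0.78 ± 0.368, SE, limma adjusted p = 0.244). The test of whether the 2 nuclease effects differed gave 0 of 156 positions by limma, where 0% of all positions were called. An unadjusted limma p-value under 0.05 was found at 19 of the 156, and at 668 of 6847 positions over the whole gene. No other tool was run for it.

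A direct comparison of both cations also compares a stay on ice with one at 37 °C. Setting MnCl2 against CaCl2 gave 75 of 156 called positions, 38 higher and 37 lower with MnCl2, where 42.2% of all positions were called, 9.54% higher and 32.6% lower. In percent, 24.4 of 5.8S positions were called higher and 23.7 lower, a description beside those shares of the whole gene. Median-ratio scaling gave 57 higher and 18 lower, edgeR 69 higher and 14 lower, and rescaling to the 5.8S sum 16 higher and 53 lower (4.64% and 43.2% of all positions). Of all 6836 tested positions, median-ratio scaling called 1253 higher and 1606 lower, and edgeR 1530 higher and 1533 lower. The limma count in 5.8S was 43, 47 and 37 without MnCl2 replicate 1, 2 and 3, where 2029 of 6835, 1938 of 6835 and 1846 of 6832 positions of the whole gene were called. Runs of higher calls stood at nucleotides 18 to 23 and 25 to 39, and a run of 18 lower calls at nucleotides 69 to 86. Nucleotide 1 had 5.23, 2.82 and 3.77 CPM with CaCl2 and 0.705, 0 and 1.06 CPM with MnCl2 (log2 change -1.67, limma adjusted p = 0.0124, and 0.0643 without MnCl2 replicate 2).

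The base at the 3′ end was compared next, since NET-seq reads the last incorporated nucleotide. In 5.8S, 41 nucleotides are A, 36 are C, 37 are G and 44 are U. U positions held 30.6% ± 0.586 of 5.8S occupancy in untreated libraries, 27.8% ± 0.775 with CaCl2 and 28.1% ± 0.544 with CaCl2 + MNase. With MnCl2 they held 33.2% ± 0.527 and with MnCl2 + DNase I 32.8% ± 0.388 (SD, n = 3). All 6 calcium libraries lay below and all 6 manganese libraries above the 3 untreated ones (exact permutation test over 5 groups, adjusted over 4 bases p = 0.000157). Without the last 20 nucleotides the shares at U were 26.4% ± 0.640 in untreated, 24.2% ± 0.217 in CaCl2 and 27.2% ± 0.582 in MnCl2 libraries (SD, n = 3, adjusted exact p = 0.00163). The untreated libraries, at 25.7% to 26.9%, then overlapped those with MnCl2, at 26.7% to 27.8%, and those with MnCl2 + DNase I, at 26.6% to 27.8%, and stayed above all calcium libraries.

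The other bases had larger adjusted p-values over the whole gene. A held 27.4% ± 0.840 in untreated and 31.0% ± 1.59 in CaCl2 libraries (SD, n = 3), and this base includes nucleotide 109. G held 16.5% ± 0.480 in untreated and 19.04% ± 0.335 in CaCl2 + MNase libraries, and C 25.4% ± 1.01 in untreated and 22.3% ± 0.978 in MnCl2 libraries (SD, n = 3). The adjusted exact permutation p was 0.0149 for A, 0.00882 for G and 0.00994 for C. For A it was 0.119, 0.0875 and 0.0945 without replicate 1, 2 and 3 of every group, for C it was 0.0875 and 0.163 without replicate 2 and 3, and for G 0.0899 without replicate 2. Without the last 20 nucleotides the adjusted exact p was 0.00163 for C, the same as for U, 0.00271 for G and 0.0208 for A. The share at C was then 22.9% to 24.4% in untreated libraries and at most 22.3% in the 12 treated ones.

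The 10 most occupied positions of each library held 31.1% ± 1.47 of 5.8S occupancy in untreated, 30.7% ± 1.61 in CaCl2, 27.5% ± 0.852 in CaCl2 + MNase libraries, and 33.6% ± 1.21 and 35.6% ± 0.939 with MnCl2 without and with DNase I (SD, n = 3). The groups differed (exact permutation p = 0.000106). The pattern over the 156 positions was compared by Spearman's rho between libraries, as a description in which the points are positions of the same libraries. Within groups rho was 0.958 to 0.995 over 15 pairs of libraries. Mean rho with untreated libraries was 0.916 and 0.904 for CaCl2 without and with MNase, and 0.844 and 0.868 for MnCl2 without and with DNase I. Mean rho between a nuclease group and its cation alone was 0.971 for MNase and 0.984 for DNase I. Single pairs of libraries ran from 0.946 to 0.990 for MNase, the lowest below every pair inside groups, and from 0.963 to 0.995 for DNase I.

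The share of 5.8S over the 15 libraries was also compared with that of 41 other windows of the same length. The closest was positions 5689 to 5846 of the 35S gene, in 25S (chromosome XII, 461724 to 461881), with a root mean square difference of 0.0631 on the log2 scale. The next were 5531 to 5688 (chromosome XII, 461882 to 462039) and 4109 to 4266 (chromosome XII, 463304 to 463461), both in 25S, with 0.0853 and 0.104. The windows share libraries and totals with 5.8S, so this is a description of likeness over 15 libraries.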

How the data were processed

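The samples were 15 NET-seq libraries in 5 groups of 3. Per the labels and the study's methods, the authors removed duplicate reads by unique molecular identifier (UMI), trimmed adaptors (cutadapt 3.4), aligned with STAR 2.7.1a to R64 and counted 3′ ends per nucleotide (bedtools 2.28.0). The deposited values are CPM: the authors scaled each library to the same total over the 35S gene, so changes are relative within that gene. Because reads from near-identical repeats cannot be assigned to one copy, values are sums over copies. The deposited tables also hold means, medians, intervals, ratios and p-values of the authors' comparisons, which were not used. Once, the labels' treatment text writes DNase I where MNase is meant by the group names, which were followed.

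Reads were recovered as whole multiples of the lowest step (within 0.1 read at 99.7% to 99.99% of positions). These were used for read numbers and for edgeR 4.0.16 as an alternative, which called 49, 83, 117, 127, 0, 0 and 83 positions of 5.8S for the 4 treated groups against untreated (CaCl2 without and with MNase, then MnCl2 without and with DNase I), CaCl2 + MNase against CaCl2, MnCl2 + DNase I against MnCl2, and MnCl2 against CaCl2. Limits for 0 cover counting error only.

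Positions were tested with limma 3.58.1 (R 4.3.3; lmFit, eBayes with trend) on log2(CPM + 1), at positions above 0 in at least 3 of the 6 libraries of a pair, with Benjamini-Hochberg adjustment over all 35S positions; this scale understates changes at low values. The study's methods test each position between 2 groups, and limma moderates such a test over all positions. Sums over windows have 1 value per library and were tested by exact permutation of libraries (F ratio over 1401400 partitions, or 20 splits for a pair). Positions named are the 5 most occupied of untreated libraries, the most occupied of each group, up to 3 largest rises and 3 largest falls among called positions of each pair (the largest change where none was called), the first position, the last above 0, and the flanks. The members, windows and lists were chosen with earlier results of these data known.

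The labels number replicates 1 to 3 in every group. Deviations of same-numbered libraries correlated above 0.1 in every pair only for MnCl2 against CaCl2 (r = 0.148, 0.214 and 0.114 over positions). With the replicate number as a block that comparison gave 75 calls, 38 higher and 37 lower, the same counts as without it. Correlations were larger in size, but of mixed sign, in CaCl2 + MNase against CaCl2. There same-numbered libraries had r = -0.376, 0.383 and 0.468, and libraries of different numbers -0.695 to 0.516. Other alternatives were the pseudocount, the filter, the scaling, all libraries in one fit, window sizes, and leaving out single libraries or positions. The exact permutation functions for the F ratio and for pairs, and the limma and edgeR fits, were tested on simulated or constructed values. The other steps were not.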

Additional observations from a re-analysis of the deposited data

How the results depend on the processing

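The values below are the main limits. Taken of 18S, 5.8S and 25S alone, the 5.8S share of MnCl2 libraries lay only 0.0383 (log2) above untreated. Once DNase I was added the difference was 0.0235. Of the 5.8S shares, MnCl2 + DNase I against untreated turned to -0.0238 (log2) without the last 20 nucleotides, and MnCl2 + DNase I against MnCl2, which had overlapped, turned to 0.0537 with median-ratio scaling. Leaving out 1 library at a time, the latter ran from -0.0540 to 0.0388. The difference between the nuclease effects on the share ran from -0.143 to 0.00256 when 1 replicate number was left out of every treated group. Over 5 groups, leaving out 1 replicate number moved the adjusted exact p to 0.00317 to 0.0635 for the ratio to 18S, 0.00212 to 0.273 for the ratio to 25S and 0.0106 to 0.103 for the first 20 nucleotides. For the bases it moved to 0.0875 to 0.119 for A, 0.0480 to 0.163 for C and 0.0466 to 0.0899 for G. For the share, body, last 20 nucleotides, U and 10 most occupied positions it stayed under 0.05 (highest 0.0476 for the share). Called positions ran from 28 to 63 for CaCl2 against untreated, 0 to 4 for MnCl2 + DNase I against MnCl2 and 37 to 75 for MnCl2 against CaCl2. With all 15 libraries in one fit, CaCl2 against untreated gave 73, where 3273 of 6845 positions of the whole gene were called. The cause of these changes was not tested. Of the named changes, nucleotides 50 and 109 in MnCl2 against CaCl2 lost their call under a setting other than leaving out a library, and none changed sign in any setting. Nucleotides 1, 2 and 9 could not be tested with a filter at a mean of 10 CPM. With the replicate number as a block, the counts against untreated were 39, 77, 111 and 117, those of the nucleases against their cations were 0, and no call of a named position changed. Over the whole gene the block gave 1793 of 6845, 3409 of 6843, 4872 of 6840 and 5114 of 6833 calls against untreated. For the nucleases against their cations it gave 0 of 6841 with MNase and 4 of 6725 with DNase I. Apart from MnCl2 against CaCl2, whose pairing is given with the methods, only in MnCl2 + DNase I against MnCl2 did every library correlate best with its own number (r = 0.0442, 0.0889 and 0.0981), a hint from the data and not from the design. Depth limits what can be said at nucleotides 1 and 2, which had 0 to 5 reads per manganese library.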
